A study of Mus musculus with 12 samples.

Results

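The genes described here encode the enzymes that cut extracellular matrix and the inhibitors that hold them back: matrix metalloproteases (Mmp), ADAMTS proteases, the ADAMTS-like proteins (Adamtsl) and the tissue inhibitors of metalloproteases (Timp). They were chosen by symbol from the 55335 gene IDs of the deposited count tables, and 47 of the 51 matching IDs had at least 10 reads summed over the 12 libraries. These 47 members are 20 Mmp, 18 Adamts, 5 Adamtsl and 4 Timp genes. Mmp7, with 0 reads, Mmp20, with 7, and Mmp21 and Adamts13, with 2 each, fell below that minimum. The libraries come from mouse limb muscle fibro-adipogenic progenitors (FAPs), mesenchymal cells that were sorted as Lin- Vcam- Sca1+ and cultured in alpha-MEM with fetal bovine serum. WT cultures received ethanol, and Bap1KO cultures received 1 µM 4-hydroxytamoxifen (4-OHT) for deletion of Bap1, which encodes a deubiquitinase of the nucleus. Smn1OE and Smn1OE_K186R cultures carried the same 4-OHT treatment and deletion together with a vector for human SMN, unmutated or with the K186R substitution. Each group had 3 libraries, which the labels list as separate samples without saying that they came from separate animals, so that p-values measure the spread between these samples, which may be technical.

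Several features of the groups limit them as models. The labels disagree on the driver of the deletion, which is Rosa-CreER in the description of the treatment and Prrx1Cre in that of the source. No group received 4-OHT with Bap1 intact, none carried an empty vector and none carried SMN without 4-OHT. WT and Bap1KO replicates 1 to 3 shared culture media batches A to C, and the replicates of both SMN groups shared batches D to F. A comparison of an SMN group with WT or Bap1KO therefore also compared other media batches, and it compared libraries of other sex-linked expression: Xist averaged 228 and 252 CPM in WT and Bap1KO and 0.0163 and 0.0425 CPM in the SMN groups, and the Y-linked Eif2s3y 0, 0, 59.8 and 63.0 CPM. Such values are typical of female cells in WT and Bap1KO and of male cells in the SMN groups. The SMN cultures therefore seem to come from other animals. In those comparisons vector, batch, donor animal and sex-linked expression cannot be told apart.

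Matrix metalloproteases are zinc enzymes that are made as inactive proforms, and between them they cleave collagens, gelatins, proteoglycans and many cell surface proteins. ADAMTS proteases are secreted relatives that bind to matrix and act on proteoglycans such as versican, on the propeptides of fibrillar procollagens and on fibrillin-rich microfibrils, whereas ADAMTS-like proteins lack the catalytic domain. TIMPs bind the active site of these enzymes and block it. FAPs are the main makers of interstitial matrix in skeletal muscle, and matrix turnover by such enzymes accompanies muscle repair and fibrosis.

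The 12 libraries held 51.2 to 68.2 M counts each. Members took 0.738 to 0.783% of them in WT libraries, 0.714 to 0.745% in those of Bap1KO, 0.429 to 0.503% in those of Smn1OE and 0.47 to 0.607% in those of Smn1OE_K186R. Levels are CPM, read counts scaled to a common library size, on TMM-normalised library sizes, given as mean ± SD over 3 libraries. Differences are log2 fold changes from edgeR's quasi-likelihood test with Benjamini-Hochberg adjustment over the 16597 genes tested, called at an adjusted p under 0.05. Of the 47 members, 38 passed the filter on low counts and were tested (16 Mmp, 13 Adamts, 5 Adamtsl and 4 Timp). Adamts15, Adamts17, Adamts18, Adamts19, Adamts20, Mmp1a, Mmp1b, Mmp8 and Mmp27 did not pass, with 11 to 72 reads each over the 12 libraries. Bap1 itself averaged 50.5, 40.3, 49.1 and 45.3 CPM in WT, Bap1KO, Smn1OE and Smn1OE_K186R, so that Smn1OE stood near WT. These are counts over the whole gene with no value for the deleted part, and they check the deletion in no group. All 6 FAP markers (Pdgfra, Ly6a, Cd34, Dcn, Lum and Col1a1) were detected, with a summed level of 11639.7 to 15572.3 CPM in WT, 7595 to 11855 CPM in Bap1KO, 3009.5 to 4650 CPM in Smn1OE and 3567 to 4915 CPM in Smn1OE_K186R, and Lum was below 1 CPM in both SMN groups. Most of that sum is Col1a1, which averaged 12679 CPM in WT. The sum was lower in every SMN library than in every WT or Bap1KO library. Of the 6 markers, 4 were called lower and 1 higher in Smn1OE against Bap1KO, and 3 lower and 1 higher in Smn1OE_K186R. Those lower in Smn1OE were Pdgfra (-0.9, edgeR adjusted p = 0.0111), Ly6a (-1.38, 0.000995), Lum (-3.21, 0.033) and Col1a1 (-1.57, 0.000645). Cd34 was called higher in both. It stood at 65.3 CPM in Smn1OE (edgeR adjusted p = 0.00612) and 60.9 CPM in Smn1OE_K186R (0.00904), beside 23.5 CPM in Bap1KO. All 6 had a negative sign in Bap1KO against WT, with a median of -0.92. Only Pdgfra was called there (-1.43, edgeR adjusted p = 0.00398). The part of these markers in the differences of the members was not tested.

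Per kilobase of exon, the inhibitors Timp1 and Timp2 stood above every enzyme of the families in WT, Timp3 stood below Mmp14, and Timp4 was near the limit of detection. In WT, Timp1 stood at 2576 ± 97.6 CPM per kb, Timp2 at 590.3 ± 70.8 CPM per kb, Mmp14 at 153 ± 12.5 CPM per kb, Timp3 at 113 ± 15.1 CPM per kb and Mmp2 at 84.2 ± 10.4 CPM per kb (SD, n = 3). Mmp23 (43.6 ± 6.53 CPM per kb) and Mmp11 (40.4 ± 3.57 CPM per kb) came next and lay within each other's spread. Of Mmp19 (20.9 ± 1.26), Adamts1 (19.7 ± 3.89), Adamts5 (18.0 ± 2.63) and Adamts2 (15.3 ± 4.42 CPM per kb), each overlapped the next in mean ± SD. The 4 Timp genes and Mmp14 together held 80.6 to 87.3% of the summed CPM of all members in every library of the 4 groups. The summed level of the Timp genes per kb was 6.88 to 8.76 times that of all Mmp and Adamts genes in WT, 6.17 to 10.4 times in Bap1KO, 5.17 to 6.54 times in Smn1OE and 5.51 to 7.52 times in Smn1OE_K186R. These ratios of RNA overlapped between all pairs of groups except WT and Smn1OE, where WT lay higher. They say nothing of protein or of active enzyme.

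Between Bap1KO and WT, in the fit without the media batch, none of the inhibitors and neither Mmp14 nor Mmp2 passed the test. Members of lower level differed in both directions. With the shared media batch as a block, Mmp2, Timp1 and Timp3 did pass, as given below, so the contrast by level holds only without the block. Mmp28, Adamts9, Adamts10 and Mmp25 fell in Bap1KO against WT, and Adamts6, Adamtsl4, Mmp15 and Mmp12 rose. These are 8 of the 38 members tested (21.1%), beside 9.72% of all genes tested, 3.36% higher and 6.37% lower. Of the 8, Mmp25 passed the filter through WT alone. Mmp12 reached the filter in no WT library and in 1 of Bap1KO, so it entered the test mainly through the SMN libraries. The median log2 fold change of the members was -0.19, beside 0.00 over all genes tested, and 24 of the 38 had a negative sign. In all of these values 4-OHT and the deletion cannot be told apart.

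Mmp28, epilysin, a secreted metalloprotease, stood at 9.29, 9.25 and 9.58 CPM in WT replicates 1 to 3 and at 5.32, 4.39 and 5.79 CPM in Bap1KO. It stood at 3.6, 4.79 and 3.43 CPM in Smn1OE and at 4.27, 4.81 and 3.92 CPM in Smn1OE_K186R. The WT libraries were close together and above all other libraries. Mmp28 fell by 0.86 ± 0.16 (SE) on the log2 scale in Bap1KO against WT (edgeR adjusted p = 0.0076), the only one of the 8 called members whose call held without any single library of either group (adjusted p at most 0.0302). Of its exon bases 12% overlap a gene on the other strand, and the strand setting of the counting is not given. Reads there may have been lost or misassigned.

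Adamts9, a versican-cleaving protease, stood at 17.5, 11.2 and 14.7 CPM in WT, 9.21, 5.61 and 7.6 CPM in Bap1KO, 5.13, 4.76 and 3.92 CPM in Smn1OE and 6.38, 5.66 and 4.31 CPM in Smn1OE_K186R. Every WT library lay above every other library. It fell by 0.95 ± 0.22 in Bap1KO (edgeR adjusted p = 0.0198), but the adjusted p reached 0.0869 when WT replicate 1 or 3, or Bap1KO replicate 2 or 3, was left out, and 12% of its exon bases overlap genes of the other strand. Adamts10, which binds fibrillin, fell by 0.38 ± 0.11 (edgeR adjusted p = 0.0448). Mmp25, a membrane protease held by a lipid anchor, was sparse, at 0.243, 0.198 and 0.526 CPM in WT and 0.119, 0.0915 and 0.0544 CPM in Bap1KO. Its SMN libraries ranged from 0.0379 to 0.0895 CPM in Smn1OE and from 0.0377 to 0.0451 CPM in Smn1OE_K186R. The WT libraries again lay above all others, with a fall of 1.83 ± 0.53 in Bap1KO (edgeR adjusted p = 0.0478). Mmp25 reached the filter on low counts in the 3 WT libraries and in no other, so that it entered the test through the group where it is high, and its call ended without the filter (0.146) and with only those groups in the fit (0.0793). Leaving out any WT library, or Bap1KO replicate 2 or 3, ended the Adamts10 call (up to 0.158), as did fitting only the groups compared (0.102), and leaving out any library of either group ended the Mmp25 call (up to 0.193).

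Among the members that rose, Adamts6, a relative of Adamts10 that also acts on microfibrils, stood at 22.1, 26.1 and 30 CPM in WT and 36.5, 36.9 and 41.1 CPM in Bap1KO, and rose by 0.55 ± 0.13 (edgeR adjusted p = 0.0208). Adamtsl4, a fibrillin-binding protein without protease activity, stood at 33.6, 37.8 and 39.7 CPM in WT and 56.7, 49.8 and 61.4 CPM in Bap1KO, and rose by 0.59 ± 0.16 (edgeR adjusted p = 0.042). Mmp15, a transmembrane metalloprotease, went from 1.35 ± 0.532 to 2.55 ± 0.287 CPM (SD, n = 3), a rise of 0.92 ± 0.25 (edgeR adjusted p = 0.0413). In all 3 genes the groups did not overlap. Adamts6 was not called without WT replicate 1, WT replicate 2 or Bap1KO replicate 3 (up to 0.0863). Mmp15 was not called without any one Bap1KO library, WT replicate 1 or WT replicate 3 (up to 0.148), or with only the groups compared in the fit (0.0798), and Adamtsl4 not without any one library of either group (up to 0.149). The number of members called was 1, 3 and 2 without WT replicates 1, 2 and 3, and 6, 3 and 2 without Bap1KO replicates 1, 2 and 3.

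**Figure D1:**
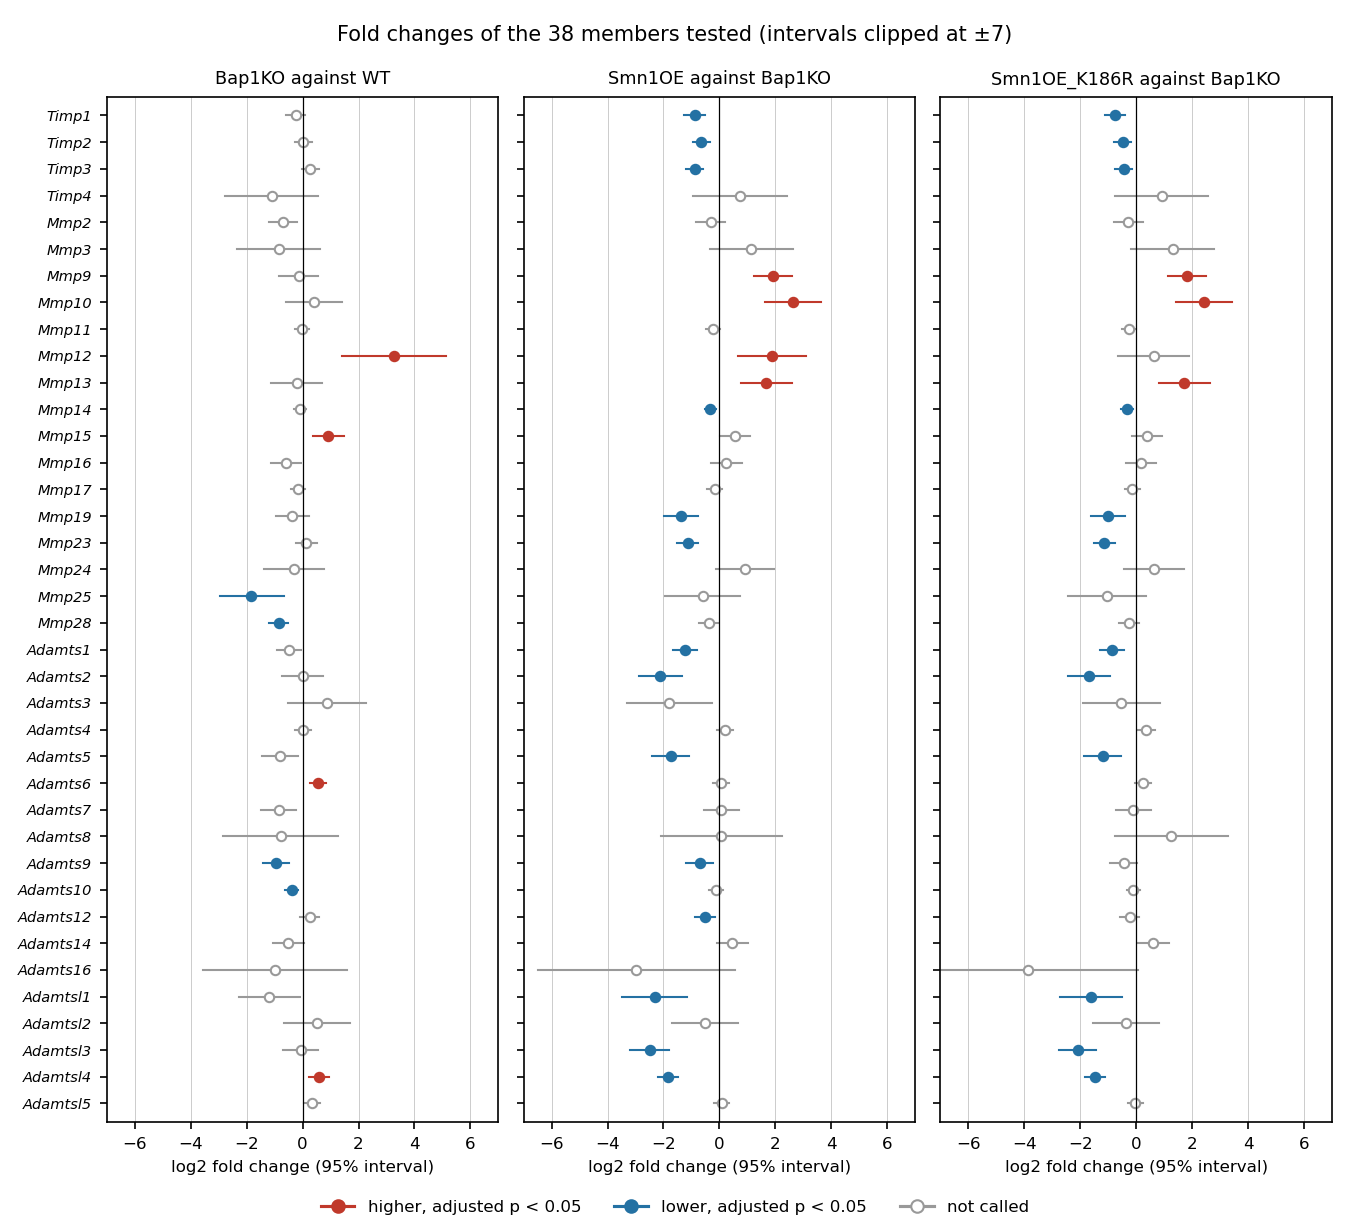
Log2 fold changes of the 38 members tested (points) with 95% intervals (bars) in Bap1KO against WT, Smn1OE against Bap1KO and Smn1OE_K186R against Bap1KO, in red for called higher, blue for called lower and open grey for not called. The called members number 8 (4 higher, 4 lower), 18 (4 higher, 14 lower) and 15 (3 higher, 12 lower), and the last 2 panels share the Bap1KO libraries.

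WT and Bap1KO libraries of the same media batch deviated together across genes, and a fit with the batch as a block called more members. With the block 20 of the 38 members passed, 7 higher and 13 lower, beside 29.0% of all genes tested (11.9% higher and 17.2% lower). The 7 higher include Mmp12, which entered the test mainly through the SMN libraries. Of the 8 members called without the block, 7 passed with it, while Mmp25 did not (edgeR adjusted p = 0.0531). The gelatinase Mmp2 stood at 293, 246 and 314 CPM in WT and at 230.1, 119.7 and 175 CPM in Bap1KO. Its groups did not overlap, and it differed by -0.7 ± 0.24 without the block (edgeR adjusted p = 0.081, or 0.0325 without Bap1KO replicate 1, or 0.00195 without the filter) and fell by 0.74 ± 0.1 with it (edgeR adjusted p = 0.000157). Adamts5, an aggrecan- and versican-cleaving protease, stood at 206, 161 and 214 CPM in WT and at 142, 68.9 and 123 CPM in Bap1KO. It differed by -0.8 ± 0.3 without the block (edgeR adjusted p = 0.113, or 0.00297 without the filter) and fell by 0.85 ± 0.098 with it (edgeR adjusted p = 3.72e-05). Both genes also passed with DESeq2. Bap1KO replicate 2 was the lowest library of its group for both genes, and its batch showed the largest fall within a batch for both, at -1.04 for Mmp2 and -1.23 for Adamts5.

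Also lower with the block were Adamts1 (-0.5, edgeR adjusted p = 0.000954), which like Adamts5 cleaves versican, Adamts7 (-0.87, 0.000538), which cleaves the matrix protein Comp, and the ADAMTS-like gene Adamtsl1 (-1.22, 0.000127). The stromelysin Mmp3 (-0.88, edgeR adjusted p = 0.00156), the transmembrane protease Mmp16 (-0.59, 0.00641), Mmp19 (-0.42, 0.0253) and the procollagen propeptidase Adamts14 (-0.6, 0.00586) were lower as well. The inhibitor Timp1 fell by 0.26 with the block (edgeR adjusted p = 0.0451), whereas Timp3 rose by 0.27 (0.011), Adamtsl5 by 0.34 (0.00104) and Adamts12 by 0.25 (0.0413). Within the batches, the ratio of Bap1KO to WT had 1 sign in all 3 batches for 26 of the 38 members, 9 higher and 17 lower. That is 68.4% of the members, beside 58.9% of all genes tested, and 44.7% of the members were lower in all 3, beside 30.7% of all genes. By overlap of the groups alone, 14 members (36.8%) had WT and Bap1KO libraries apart, beside 32.3% of all genes tested.

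**Figure D2:**
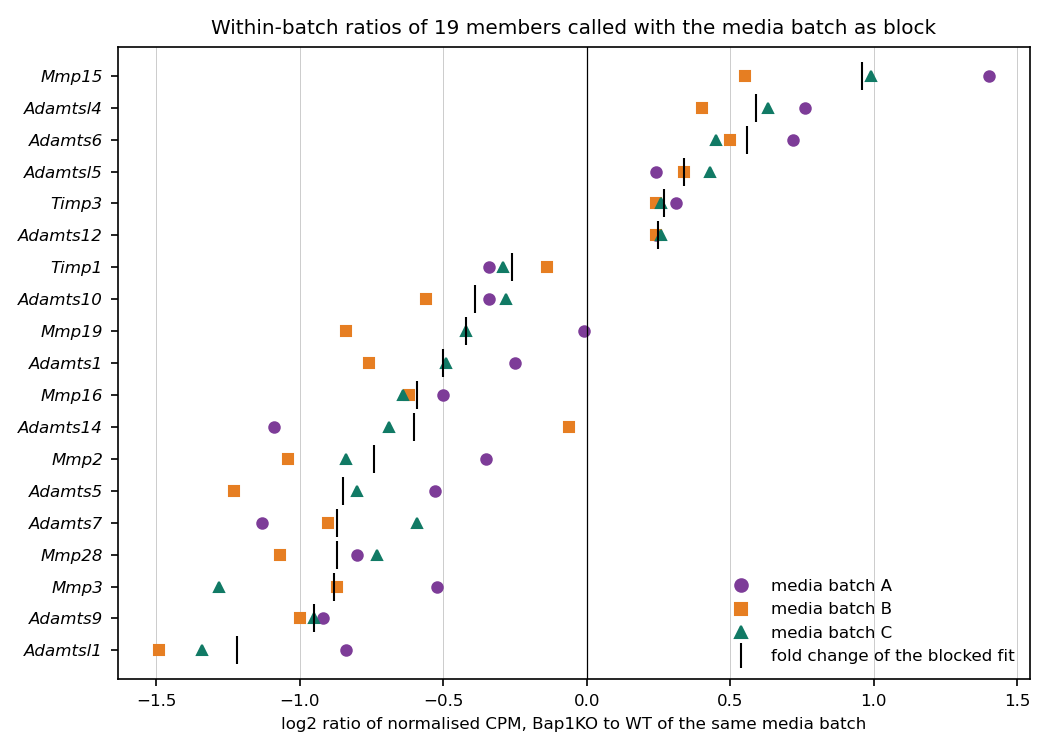
Log2 ratio of Bap1KO to WT CPM within media batches A, B and C (symbols) and the fold change of the fit with the batch as block (vertical line) for 19 of the 20 members called in that fit; Mmp12 is not drawn because WT had no Mmp12 read in batch C. All 3 batches lie on 1 side of 0 for each of the 19, from Adamtsl1 at -1.22 to Mmp15 at 0.96 in the blocked fit, and Mmp19 in batch A (-0.01) lies at the line.

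Between the SMN groups and Bap1KO, 3 of 4 Timp and 3 of 5 Adamtsl genes were called lower in each comparison, no Adamts gene was called higher, and Mmp genes were called in both directions. Mmp genes called higher numbered 4 in Smn1OE and 3 in Smn1OE_K186R, and 3 were called lower in each. In Smn1OE against Bap1KO, 18 of the 38 members were called, 4 higher and 14 lower, beside 33.5% of all genes tested (15.8% higher and 17.7% lower). The 4 include Mmp12, which reached the filter on low counts in 3 libraries of Smn1OE, where it is high, and in 1 of Bap1KO. In Smn1OE_K186R against Bap1KO, 15 were called, 3 higher and 12 lower, beside 32.6% of all genes (16.1% higher and 16.5% lower). The members' shares were 47.4% and 39.5%. The libraries of the groups did not overlap for 22 members in Smn1OE (57.9%, beside 48.6% of all genes tested) and for 18 in Smn1OE_K186R (47.4%, beside 43.7%). Without Bap1KO replicate 2 the members called were 22 and 17, and without any other single library 14 to 17 and 11 to 14. The medians of the members were -0.32 and -0.25 on the log2 scale, beside -0.01 over all genes tested in each. Both comparisons use the same 3 Bap1KO libraries, so their values are given side by side and are not independent. In bulk libraries such as these, fewer cells of a type and less RNA per cell cannot be told apart.

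Of the 4 inhibitors, Timp1, Timp2 and Timp3 fell in both SMN groups. Timp1, a secreted inhibitor that also promotes cell growth, stood at 2188, 2324 and 2349 CPM in WT, 1731, 2104 and 1920.4 CPM in Bap1KO, 1153, 1099.6 and 866 CPM in Smn1OE and 1481, 947 and 949 CPM in Smn1OE_K186R. Every SMN library lay below every Bap1KO library, and replicate 1 of Smn1OE_K186R stood above the other 5 SMN libraries. Timp1 fell by 0.88 ± 0.17 in Smn1OE (edgeR adjusted p = 0.0025) and by 0.77 ± 0.17 in Smn1OE_K186R (edgeR adjusted p = 0.00537), and both calls held without any single library. Timp1 lies on chromosome X, and the part of the difference in Xist between these libraries was not tested.

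Timp2, which blocks Mmp2 and also takes part in its activation at the cell surface, stood at 2011, 2560.3 and 2328 CPM in WT, 2019, 2609 and 2416 CPM in Bap1KO, 1677, 1477 and 1313.5 CPM in Smn1OE and 1974, 1525 and 1557 CPM in Smn1OE_K186R. WT and Bap1KO libraries of the same batch differed by 0.01 to 0.05 on the log2 scale, and the SMN libraries lay below all Bap1KO libraries, with Smn1OE_K186R replicate 1 at their edge. Timp2 fell by 0.66 ± 0.14 in Smn1OE (edgeR adjusted p = 0.00449) and by 0.48 ± 0.14 in Smn1OE_K186R (0.0207), the latter not without Bap1KO replicate 2 or 3 or Smn1OE_K186R replicate 2 or 3 (up to 0.067), nor with only those groups in the fit (0.0504). Timp3, which stays bound to matrix and also inhibits ADAMTS and ADAM proteases, stood at 941.5, 791 and 1034 CPM in WT, 1167, 936 and 1237 CPM in Bap1KO, 601, 635 and 579.7 CPM in Smn1OE and 913, 853 and 674 CPM in Smn1OE_K186R. The Smn1OE libraries were close together and below all others, and those of Smn1OE_K186R lay between them and Bap1KO. Timp3 fell by 0.88 ± 0.14 in Smn1OE (edgeR adjusted p = 0.000997) and by 0.45 ± 0.14 in Smn1OE_K186R (0.0241), the latter not when Bap1KO replicate 1 or 3, or Smn1OE_K186R replicate 3, was left out (up to 0.0877), nor with only those groups in the fit (0.0624). The gene Syn3 on the other strand covers 21.3% of the Timp3 exon bases. Timp4, an inhibitor best known from heart, was near the limit of detection, at 0.304, 0.29 and 0.294 CPM in WT, 0.313, 0 and 0.0907 CPM in Bap1KO, 0.24, 0.298 and 0.133 CPM in Smn1OE and 0.256, 0.218 and 0.301 CPM in Smn1OE_K186R. Its groups overlapped, and it was called in no comparison.

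The proportion between the inhibitors differed from group to group. The level of Timp1 per kb was 3.98 to 4.77 times that of Timp2 in WT, 3.49 to 3.76 times in Bap1KO, 2.89 to 3.27 times in Smn1OE and 2.67 to 3.29 times in Smn1OE_K186R. The WT range lay above that of Bap1KO, which lay above those of both SMN groups, and the SMN ranges overlapped. The smallest p that an exact permutation test allows with these group sizes is 0.1, and the ranges are given as a description.

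Mmp14, the transmembrane protease that activates Mmp2 and cleaves fibrillar collagen, fell by smaller amounts. It stood at 948, 824 and 957 CPM in WT, 915, 753 and 882 CPM in Bap1KO, 623, 743 and 679.9 CPM in Smn1OE and 658, 692 and 679 CPM in Smn1OE_K186R. The lowest Bap1KO library, replicate 2, lay just above the highest SMN library. Mmp14 fell by 0.32 ± 0.096 in Smn1OE (edgeR adjusted p = 0.0247) and by 0.33 ± 0.096 in Smn1OE_K186R (0.0212). Replicate 1 or 3 of Bap1KO or of Smn1OE, left out, ended the first call (up to 0.0979), and replicate 1 or 3 of Bap1KO or replicate 1 of Smn1OE_K186R the second (up to 0.0792), as did fitting only those groups (0.0558). Mmp2 stood at 166, 145 and 111 CPM in Smn1OE and 185.8, 135 and 112 CPM in Smn1OE_K186R, ranges that overlapped the Bap1KO libraries. Its log2 fold change was -0.31 (95% interval -0.82 to 0.2) in Smn1OE and -0.28 (-0.79 to 0.23) in Smn1OE_K186R, and neither passed. Mmp11, a stromelysin-like protease activated inside the cell by furin, stood at 116, 101 and 119.8 CPM in WT, 112, 93 and 126 CPM in Bap1KO, 90.2, 90.9 and 98.8 CPM in Smn1OE and 94.3, 82.4 and 100.2 CPM in Smn1OE_K186R. Bap1KO overlapped every other group, while the SMN libraries lay below those of WT, and the differences from Bap1KO of -0.24 and -0.26 did not pass (edgeR adjusted p = 0.119 and 0.1, or 0.0252 and 0.0217 without Bap1KO replicate 2).

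**Figure D3:**
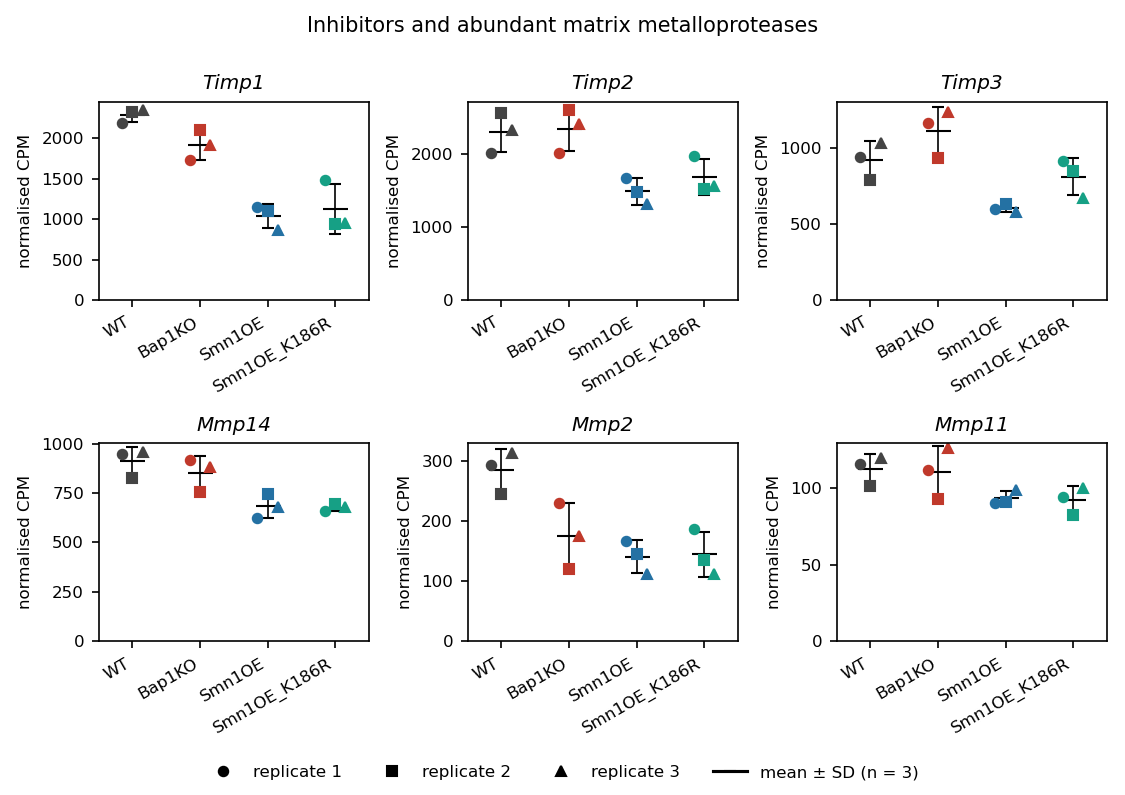
TMM-normalised CPM of Timp1, Timp2, Timp3, Mmp14, Mmp2 and Mmp11 in each library (symbols by replicate) with the mean and SD of each group (n = 3), on axes from 0. Timp1, Timp2, Timp3 and Mmp14 show every SMN library below every Bap1KO library, whereas Mmp2 and Mmp11 overlap between Bap1KO and the SMN groups.

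Several secreted Mmp genes lie side by side on chromosome 9, in the order Mmp13, Mmp12, Mmp1b, Mmp3, Mmp1a, Mmp10, Mmp8, Mmp27, Mmp20 and Mmp7. The first 6 of them were the only members whose promoter in the RefSeq table (GRCm38.p6, an earlier build than that of the counts, matched by symbol) held the letters of an AP-1 element, TGACTCA or its reverse complement TGAGTCA. The table gave 34 promoters for 32 of the 47 members, each running from 250 bases before to 50 after the start, searched on both strands. Of all 32851 promoters of that length 5.2% held these letters, 13.6% held the TATA box letters TATAAA or TTTATA, and 0.941% held both. All 6 neighbours held both, but they need not be 6 independent cases, since the Mmp1a and Mmp1b windows share long stretches. They are shown because 3 of them, Mmp13, Mmp12 and Mmp10, are among the 4 members that rose in Smn1OE against Bap1KO. Of the rest, Mmp3 was not called there, and Mmp1a and Mmp1b were not tested. Each window runs from 100 bases before the start to 30 from the start on, 5′ to 3′ on the gene's strand, with the AP-1 and TATA letters in capitals.
Mmp13: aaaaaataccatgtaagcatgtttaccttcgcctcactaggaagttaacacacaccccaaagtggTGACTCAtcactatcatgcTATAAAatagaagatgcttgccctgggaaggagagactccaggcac
Mmp12: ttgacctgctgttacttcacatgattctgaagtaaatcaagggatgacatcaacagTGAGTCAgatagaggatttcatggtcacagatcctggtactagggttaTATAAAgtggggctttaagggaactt
Mmp1b: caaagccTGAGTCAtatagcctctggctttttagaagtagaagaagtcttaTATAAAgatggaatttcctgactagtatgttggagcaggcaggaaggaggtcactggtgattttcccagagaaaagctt
Mmp3: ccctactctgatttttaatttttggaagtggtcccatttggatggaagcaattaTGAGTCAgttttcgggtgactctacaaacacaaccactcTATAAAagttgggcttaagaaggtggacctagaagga
Mmp1a: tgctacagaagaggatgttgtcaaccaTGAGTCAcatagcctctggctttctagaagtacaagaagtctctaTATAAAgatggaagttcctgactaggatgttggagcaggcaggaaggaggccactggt
Mmp10: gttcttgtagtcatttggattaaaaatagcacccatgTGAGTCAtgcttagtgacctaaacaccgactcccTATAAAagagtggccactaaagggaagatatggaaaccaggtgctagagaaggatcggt
The windows lie at chr9:7272414-7272543 (plus strand), chr9:7347274-7347403 (plus), chr9:7387997-7388126 (minus), chr9:7445722-7445851 (plus), chr9:7464041-7464170 (plus) and chr9:7502242-7502371 (plus). The first of the AP-1 letters lies 35 bases before the start in Mmp13, 44 in Mmp12, 93 in Mmp1b, 46 in Mmp3, 73 in Mmp1a and 63 in Mmp10. The table lists 2 starts for Mmp12, and the promoter of the start not shown held neither the AP-1 nor the TATA letters. In the Mmp12 window shown the TATA letters lie after the listed start. Matching letters are a description of these windows and not evidence that a factor binds there.

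Of these neighbours, Mmp10, Mmp13 and Mmp12 rose in Smn1OE against Bap1KO, and Mmp10 and Mmp13 in Smn1OE_K186R. Mmp10, a stromelysin that cleaves proteoglycans and activates procollagenases, stood at 1.55, 3.31 and 1.36 CPM in WT, 1.06, 4.9 and 2.31 CPM in Bap1KO, 13.9, 15.8 and 21.8 CPM in Smn1OE and 12.4, 14.2 and 17.6 CPM in Smn1OE_K186R. Every SMN library lay above every other library, and Bap1KO replicate 2 was the highest of the rest. Mmp10 rose by 2.64 ± 0.46 in Smn1OE, or 6.22-fold (edgeR adjusted p = 0.00183), and by 2.42 ± 0.46 in Smn1OE_K186R, or 5.34-fold (0.00305). Mmp10 shares 8.37% of its stretches of 50 exon bases with Mmp3, so some reads of either may have been lost or misassigned. Mmp13, a collagenase of cartilage, bone and wounds, stood at 3.33, 2.73 and 1.41 CPM in WT, 2.8, 2.65 and 0.98 CPM in Bap1KO, 7.91, 5.94 and 6.87 CPM in Smn1OE and 10.8, 4.8 and 5.67 CPM in Smn1OE_K186R. The SMN libraries lay above all others, and batch D held the highest of each SMN group. Mmp13 rose by 1.68 ± 0.42 in Smn1OE (edgeR adjusted p = 0.01) and by 1.72 ± 0.42 in Smn1OE_K186R (0.0094).

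Mmp12, an elastase named for macrophages, was far less abundant and had 2 reads over all WT libraries, 22 over those of Bap1KO, 80 over those of Smn1OE and 34 over those of Smn1OE_K186R. The libraries stood at 0.0152, 0.0153 and 0 CPM in WT, 0.0894, 0.213 and 0.0363 CPM in Bap1KO, 0.525, 0.328 and 0.435 CPM in Smn1OE and 0.18, 0.218 and 0.132 CPM in Smn1OE_K186R. WT lay lowest and Smn1OE highest, and Smn1OE_K186R overlapped Bap1KO. Mmp12 reached the filter on low counts in 3 libraries of Smn1OE, 2 of Smn1OE_K186R and 1 of Bap1KO. It thus entered the test mainly through the groups where it is high. Scaled to library size, the reads were 11.5 times those of WT in Bap1KO (exact 95% interval 2.82 to 101, counting error only), 42 times in Smn1OE (11.3 to 353) and 17.7 times in Smn1OE_K186R (4.53 to 152). Mmp12 passed the test in Bap1KO against WT (edgeR adjusted p = 0.0335), but not when any WT library or Bap1KO replicate 2 was left out (up to 0.126), and with only those groups in the fit it did not reach the filter. It rose by 1.88 ± 0.56 in Smn1OE against Bap1KO (edgeR adjusted p = 0.0231), not called when replicate 1 or 3 of either group was left out (up to 0.0872), and differed by 0.62 in Smn1OE_K186R (0.434). Macrophage markers were counted beside it. The 7 listed summed to 21.4 to 27.6 CPM in WT, 27.0 to 34.2 CPM in Bap1KO, 20.9 to 26.3 CPM in Smn1OE and 20.4 to 28.5 CPM in Smn1OE_K186R. Of these 7, 4 averaged under 1 CPM in every group, and C1qa had no read in WT, Bap1KO or Smn1OE. Ptprc averaged 0.00508 CPM in Bap1KO and rose to 0.272 CPM in Smn1OE (edgeR adjusted p = 0.00432) and Cd68 rose from 4.86 to 10.8 CPM (0.00308), whereas Csf1r (16.9 to 7.01 CPM) and Lyz2 (7.76 to 4.72 CPM) fell (0.00758 and 0.0133), and their part in the Mmp12 difference was not tested.

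Mmp3, the stromelysin between Mmp1b and Mmp1a, followed the media batch in the SMN groups. It stood at 15.5, 6.88 and 2.27 CPM in Smn1OE replicates 1 to 3 and at 19.7, 5.26 and 2.81 CPM in Smn1OE_K186R, in batches D, E and F. In WT it stood at 6.46, 7.69 and 6.11 CPM and in Bap1KO at 4.5, 4.19 and 2.52 CPM. The SMN libraries spanned the whole range of the others, and the differences from Bap1KO of 1.14 in Smn1OE and 1.31 in Smn1OE_K186R did not pass (edgeR adjusted p = 0.218 and 0.158, or 0.0373 and 0.0148 without the filter on low counts). All 4 tested neighbours had a positive sign in both comparisons, with a median of 1.78 in Smn1OE and 1.51 in Smn1OE_K186R, beside -0.28 and -0.25 over the 12 tested Mmp genes elsewhere. This grouping by position was made after the values were seen, and the 4 tested are those of 8 member neighbours that passed the filter on low counts. DESeq2, run without that filter, gave 7 of the 8 a positive sign and 1 a negative sign in each comparison. Of the untested neighbours, Mmp8, a collagenase best known from neutrophils, had 1 read in the WT libraries, none in those of Bap1KO, 14 in those of Smn1OE and 19 in those of Smn1OE_K186R. The Smn1OE libraries held 4, 8 and 2 Mmp8 reads and those of Smn1OE_K186R 15, 4 and 0. Mmp1b had 0, 4 and 4 reads in WT, 1, 0 and 0 in Bap1KO, 14, 3 and 3 in Smn1OE and 6, 7 and 1 in Smn1OE_K186R, so that most of its Smn1OE reads came from replicate 1. Mmp1b shares 11.8% of its stretches of 50 exon bases with Mmp1a and overlaps Mmp12 on the other strand in 10.8% of its exon bases, so its reads are uncertain. The 5 neutrophil markers (S100a8, S100a9, Mpo, Elane and Ly6g) summed to at most 0.765 CPM in any library.

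Mmp9, a gelatinase encoded on chromosome 2, rose as well. It stood at 0.791, 0.504 and 0.34 CPM in WT, 0.447, 0.549 and 0.49 CPM in Bap1KO, 1.48, 2.13 and 2.04 CPM in Smn1OE and 1.79, 1.38 and 2.09 CPM in Smn1OE_K186R. The SMN libraries lay above all others. Mmp9 rose by 1.92 ± 0.31 in Smn1OE (edgeR adjusted p = 0.00128) and by 1.82 ± 0.31 in Smn1OE_K186R (0.00187), calls that held without any single library. Together the Mmp genes of chromosome 9 stayed a small share of the family, at 8.95 to 13.9 CPM of a summed 1378 to 1619 CPM in WT, and at 29.1 to 38.1 CPM of 1016 to 1121 CPM in Smn1OE. Per kb, Mmp10 stood at 0.0085 to 0.0264 of the level of Mmp2 in WT and at 0.163 to 0.385 of it in Smn1OE.

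**Figure D4:**
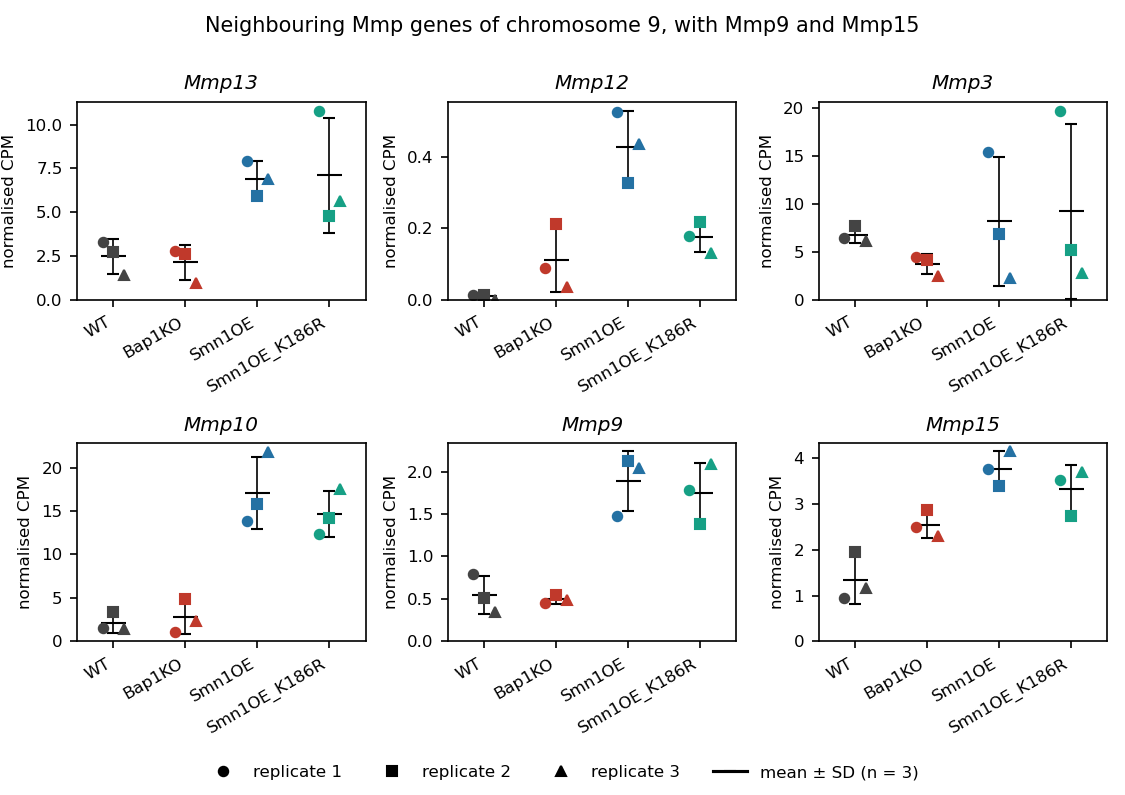
TMM-normalised CPM of Mmp13, Mmp12, Mmp3 and Mmp10 (neighbours on chromosome 9), Mmp9 and Mmp15 in each library (symbols by replicate) with the mean and SD of each group (n = 3). Mmp13, Mmp10 and Mmp9 show all SMN libraries above all others, while Mmp3 runs from 2.27 to 15.5 CPM within Smn1OE.

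Other Mmp genes fell. Mmp23, a membrane-linked protease with an unusual cysteine array, stood at 115, 85.4 and 105 CPM in WT, 137, 81.2 and 118 CPM in Bap1KO, 48.1, 52.2 and 52.8 CPM in Smn1OE and 51.2, 44.5 and 56.7 CPM in Smn1OE_K186R. No SMN library reached the lowest WT or Bap1KO library. Mmp23 fell by 1.13 ± 0.17 in Smn1OE (edgeR adjusted p = 0.000835) and by 1.14 ± 0.17 in Smn1OE_K186R (0.000957). Mmp19, a secreted protease of basement membrane proteins, averaged 57.1 ± 18.9 CPM in Bap1KO, and fell to 21.9 ± 4.95 CPM in Smn1OE (-1.38, edgeR adjusted p = 0.00366) and to 28.5 ± 10.1 CPM in Smn1OE_K186R (-1.0, 0.0173). The second Mmp19 call was lost without Bap1KO replicate 1 (0.0714) and with only those groups in the fit (0.0507). Genes on the other strand cover 28.3% of the Mmp19 exon bases, so its counts are uncertain. Mmp15, Mmp16, Mmp17, Mmp24, Mmp25 and Mmp28 passed in neither comparison with Bap1KO in the main fit. In Smn1OE, Mmp15 differed by 0.56 without overlap of the groups (edgeR adjusted p = 0.0959, or 0.0463 with only those groups in the fit). Mmp28 differed there by -0.39 (edgeR adjusted p = 0.0808), and passed without replicate 2 of Bap1KO or of Smn1OE (as low as 0.0253).

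ADAMTS proteases fell where they were called in the main fit, and none was called higher there against Bap1KO. Of the 13 tested, 5 fell in Smn1OE (38.5%, beside 33.5% of all genes called in either direction and 17.7% lower) and 3 in Smn1OE_K186R (23.1%, beside 32.6% and 16.5%). Adamts2, a procollagen N-propeptidase, stood at 139, 104 and 185.9 CPM in WT, 161, 86.5 and 185 CPM in Bap1KO, 40.4, 36.5 and 23.1 CPM in Smn1OE and 63.4, 43.2 and 27.5 CPM in Smn1OE_K186R. All SMN libraries lay below all others, and WT and Bap1KO overlapped. Adamts2 fell by 2.11 ± 0.35 in Smn1OE (edgeR adjusted p = 0.00138) and fell by 1.69 ± 0.35 in Smn1OE_K186R (0.00424).

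Adamts5 stood at 37, 42.1 and 20.9 CPM in Smn1OE and 52.6, 61.1 and 33 CPM in Smn1OE_K186R, below every Bap1KO library. It fell by 1.74 ± 0.31 in Smn1OE (edgeR adjusted p = 0.00189) and by 1.19 ± 0.3 in Smn1OE_K186R (0.0119). Adamts1, another versican-cleaving protease, stood at 102, 85.8 and 127 CPM in WT, 85.3, 50.7 and 90 CPM in Bap1KO, 33.7, 31.9 and 30.1 CPM in Smn1OE and 41.8, 46.5 and 34.8 CPM in Smn1OE_K186R. The Smn1OE libraries were close together and lowest, and Bap1KO replicate 2 came nearest to the SMN libraries. Adamts1 fell by 1.24 ± 0.2 in Smn1OE (edgeR adjusted p = 0.00121) and by 0.88 ± 0.2 in Smn1OE_K186R (0.00668). Adamts9 fell by 0.7 ± 0.22 in Smn1OE (edgeR adjusted p = 0.0294), though not without replicate 1 or 3 of Bap1KO or 2 or 3 of Smn1OE (up to 0.12), and differed by -0.45 in Smn1OE_K186R (0.128, or 0.0445 without Bap1KO replicate 2).

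Adamts12, which like Adamts7 cleaves Comp, stood at 90.1, 87.2 and 107 CPM in WT, 107, 103 and 128 CPM in Bap1KO, 69.6, 76.6 and 91.1 CPM in Smn1OE and 72.4, 115 and 99.2 CPM in Smn1OE_K186R. Smn1OE lay below Bap1KO, and Smn1OE_K186R overlapped it. Adamts12 fell by 0.51 ± 0.16 in Smn1OE (edgeR adjusted p = 0.0291), though not without Smn1OE replicate 1 or 2 or Bap1KO replicate 3 (up to 0.106), and differed by -0.24 in Smn1OE_K186R (0.273). The aggrecanase Adamts4 went the other way without passing, at 0.21 in Smn1OE (0.253) and 0.36 in Smn1OE_K186R (edgeR adjusted p = 0.0543, or as low as 0.0343 with other size factors, DESeq2 or voom). So did Adamts14, at 0.46 in Smn1OE (edgeR adjusted p = 0.185, or 0.00665 without Bap1KO replicate 2). In Smn1OE_K186R Adamts14 differed by 0.6 (edgeR adjusted p = 0.0883). It passed there without Bap1KO replicate 2 (0.00374), without the filter (0.0116) and with voom.

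Of the 5 ADAMTS-like genes 3 fell in each comparison, and Adamtsl3 had the most negative log2 fold change of the called members in both. Adamtsl3 stood at 38.8, 31.2 and 35.8 CPM in WT, 46.1, 22.6 and 32 CPM in Bap1KO, 6.28, 7.37 and 4.17 CPM in Smn1OE and 8.62, 10.2 and 4.65 CPM in Smn1OE_K186R. Adamtsl4 stood at 18, 15.4 and 13.5 CPM in Smn1OE and 26.3, 17.9 and 16.2 CPM in Smn1OE_K186R. All SMN libraries lay below all WT and Bap1KO libraries for both genes. Adamtsl3 fell by 2.5 ± 0.31 in Smn1OE (edgeR adjusted p = 0.000345) and by 2.1 ± 0.31 in Smn1OE_K186R (0.000933), and Adamtsl4 by 1.84 ± 0.17 (8.69e-05) and 1.48 ± 0.17 (0.000291). Adamtsl4 thus was called higher in Bap1KO than in WT and lower in both SMN groups than in either. Adamtsl1 averaged 14.8 ± 6.07 CPM in Bap1KO and fell to 2.95 ± 1.82 CPM in Smn1OE (-2.31, edgeR adjusted p = 0.00683) and to 4.79 ± 2.53 CPM in Smn1OE_K186R (-1.62, 0.031, up to 0.0974 without Bap1KO replicate 1 or 3 or Smn1OE_K186R replicate 2 or 3). Adamtsl5 stood at 50.7, 50 and 43.7 CPM in WT, 60.1, 63.3 and 58.8 CPM in Bap1KO, 67.1, 53.7 and 72.5 CPM in Smn1OE and 63.9, 49.1 and 65.7 CPM in Smn1OE_K186R. Its SMN libraries overlapped Bap1KO, and Adamtsl5 was called in neither comparison.

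**Figure D5:**
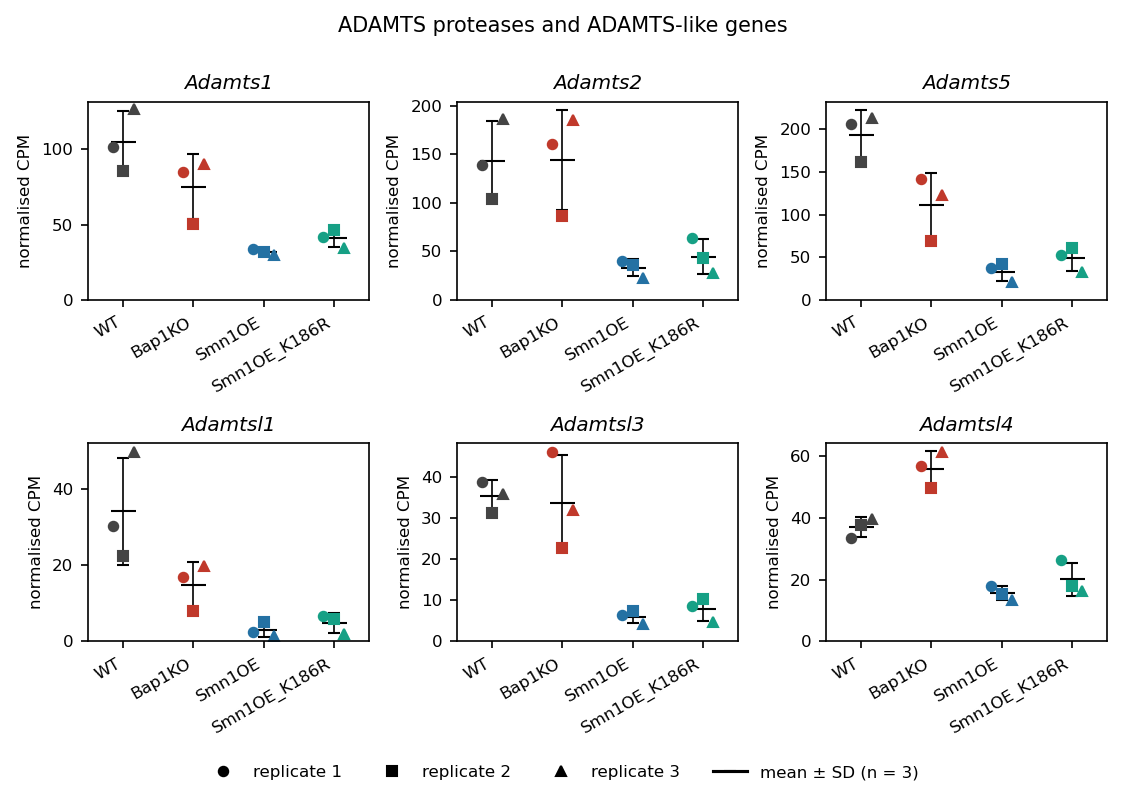
TMM-normalised CPM of Adamts1, Adamts2, Adamts5, Adamtsl1, Adamtsl3 and Adamtsl4 in each library (symbols by replicate) with the mean and SD of each group (n = 3), on axes from 0. In each panel all 6 SMN libraries lie below all Bap1KO libraries, and Adamtsl4 is the panel in which Bap1KO lies above WT.

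WT differs from the SMN groups in 4-OHT and deletion as well as in vector, batch, sex-linked expression and, it seems, donor animal. Against WT, 26 members were called in Smn1OE, 7 higher and 19 lower, beside 50.4% of all genes tested (23.8% higher and 26.6% lower). In Smn1OE_K186R 25 were called, 7 higher and 18 lower, beside 50.5% (24.0% higher and 26.5% lower). The libraries did not overlap for 28 members (73.7%, beside 62.4% of all genes tested) and 26 members (68.4%, beside 58.4%). The members' shares were 68.4% and 65.8%, and their medians -0.56 and -0.36, beside -0.02 over all genes tested in each. Both counts include Mmp25, which reached the filter on low counts in WT alone, and Mmp12, which reached it in no WT library. The Smn1OE_K186R count also includes Adamts16, which reached it in no SMN library. Each of these genes entered the test through groups where it is high. Adamts5 fell by 2.54 ± 0.32 in Smn1OE (edgeR adjusted p = 8.23e-05) and by 1.99 ± 0.31 in Smn1OE_K186R (0.000321), and Timp1 by 1.14 ± 0.17 (0.00021) and 1.02 ± 0.17 (0.000412). Mmp2 fell by 1.01 ± 0.24 (edgeR adjusted p = 0.00386) and 0.98 ± 0.24 (0.00474), and Adamtsl1 by 3.52 ± 0.55 (0.000338) and 2.82 ± 0.53 (0.00105). Adamts6 rose by 0.6 ± 0.13 in Smn1OE (edgeR adjusted p = 0.00214) and 0.8 ± 0.13 in Smn1OE_K186R (0.000369), and Mmp15 by 1.48 ± 0.25 (0.000576) and 1.3 ± 0.25 (0.0013). Adamts16 had 70 reads in WT, of which none were in replicate 2, and 35, 4 and 2 reads in Bap1KO, Smn1OE and Smn1OE_K186R. Its Smn1OE_K186R call against WT (edgeR adjusted p = 0.0335) ended without WT replicate 1 or 3 or any one Smn1OE_K186R library (up to 0.115), and its groups overlapped.

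Between Smn1OE_K186R and Smn1OE, which differ by the substitution in the SMN vector and share media batches, no member and no gene passed. With edgeR 0 of 38 members were called, beside 0.0% of all genes tested, DESeq2 called 0 members, and at an unadjusted p under 0.05 there were 2 members (Timp3 and Mmp12) and 388 genes. The log2 fold change was 0.12 for Timp1 (95% interval -0.24 to 0.47), 0.18 for Timp2 (-0.12 to 0.48), 0.43 for Timp3 (0.13 to 0.72) and 0.19 for Timp4 (-1.41 to 1.78). It was 0.04 for Mmp2 (-0.47 to 0.55) and -0.01 for Mmp14 (-0.22 to 0.2), the narrowest interval of these 6. With the media batch as a block 2 members passed, Timp3 higher by 0.42 (edgeR adjusted p = 0.0301) and Adamts5 higher by 0.57 (0.0378), beside 0.289% of all genes tested. All 48 genes called in that fit were higher and 0 were lower, so the direction is not particular to these members. Timp3 was higher in Smn1OE_K186R in each batch, by 0.6, 0.43 and 0.22 in D, E and F, and Adamts5 by 0.51, 0.54 and 0.66. Across the batches, 15 members were higher in all 3 and 4 were lower in all 3 (50% of 38), beside 34.2% of all genes tested, of which 17.9% were higher and 16.3% lower. The CPM of the groups did not overlap for 5 members (13.2%), beside 6.78% of all genes tested. Mmp12 differed by -1.26 (95% interval -2.43 to -0.09, edgeR adjusted p = 0.997), with every Smn1OE_K186R library below every Smn1OE library.

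Other genes of the pathway were read from lists of activators, inhibitors and receptors, ADAM proteases, astacin and pappalysin proteases, and substrates. Of 14 activators, inhibitors and receptors outside the families, 1 fell in Bap1KO against WT (7.14%, beside 9.72% of all genes called), Tfpi2, a serine protease inhibitor of the matrix (-0.84, edgeR adjusted p = 0.0251). Against Bap1KO, 3 of the 14 rose and 4 fell in Smn1OE, and 2 rose and 4 fell in Smn1OE_K186R. These are 50% and 42.9% of the list, beside 33.5% and 32.6% of all genes tested. Tfpi2 rose by 1.58 and 1.57 (edgeR adjusted p = 0.000397 and 0.000527). Reck, a membrane-anchored inhibitor of several Mmp enzymes, fell, with log2 fold changes of -1.19 and -0.75 (edgeR adjusted p = 0.00351 and 0.0294), and Plat, the tissue plasminogen activator, did so with -1.52 and -1.13 (0.00219 and 0.00933). Pcsk6, a proprotein convertase, fell (-0.86 and -0.69, edgeR adjusted p = 0.00093 and 0.00305), while Furin, the convertase that activates Mmp14 and Mmp11, rose by 0.46 and 0.35 (0.00449 and 0.0172). The list medians were -0.19 and 0.05, beside -0.01 over all genes.

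Of 10 ADAM proteases, Adam8 rose in Bap1KO against WT (1.20, edgeR adjusted p = 0.0214). Against Bap1KO, 4 fell in Smn1OE, and 1 rose and 3 fell in Smn1OE_K186R, which is 40% of the list in each, beside 33.5% and 32.6% of all genes tested. Adam8 fell (-1.39 and -1.09, edgeR adjusted p = 0.0037 and 0.0121), as did Adam23, an ADAM without protease activity (-1.18 and -0.83, 0.00295 and 0.0158). Of 5 astacin and pappalysin proteases none was called in Bap1KO against WT, where 1 had an unadjusted p under 0.05. In each SMN group 2 rose and 1 fell (60% of the list, beside the same 33.5% and 32.6%), and the procollagen propeptidase Tll1 rose by 1.87 and 1.83 (edgeR adjusted p = 0.00157 and 0.00201). Of 11 substrates and partners 10 were tested, without Acan. None was called in Bap1KO against WT by edgeR (1 at an unadjusted p under 0.05), and against Bap1KO 8 fell in Smn1OE (80%, beside 17.7% of all genes called lower) and 7 in Smn1OE_K186R (70%, beside 16.5%), with medians of -1.38 and -1.18. Comp, the substrate of Adamts7 and Adamts12, fell (-3.68 and -3.21, edgeR adjusted p = 0.000189 and 0.000424), and so did Col3a1, a fibrillar collagen chain (-2.51 and -1.99, 0.00121 and 0.00374), and Vcan, the versican gene (-1.4 and -0.82, 0.00193 and 0.0241).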

How the data were processed

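RNA was sequenced as paired ends from TruSeq libraries, per the labels' protocols. The authors deposited whole-number read counts per Ensembl gene ID, 1 table per library, not normalized. Per the submitters' processing notes the tools included STAR 2.6.1, HTSeq 0.9.1, cutadapt 1.4.2, CASAVA 1.8.2 and DESeq2, on the genome build GRCm39. The annotation release, settings and strand are not given in the sources used here, so that overlapping and antisense genes are uncertain. The 5 closing rows of each table that name no gene (11.11 to 14.56% of the records) were left out. Symbols, chromosomes and exon lengths came from GENCODE M21, which matched 55154 of the 55335 IDs.

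Counts were tested in R 4.3.3 with edgeR 4.0.16: TMM, filterByExpr with a minimum count of 10, and quasi-likelihood tests from a fit to all 12 libraries with 4 group means (8 residual degrees of freedom), 2-sided. Fold changes carry a prior count of 0.125. The common biological coefficient of variation was 0.179, so the spread between replicates rather than depth limits abundant members. The procedure was tested on simulated data. Samples were grouped by their treatment and genotype labels. Deviations from the group means correlated at 0.31, 0.43 and 0.24 between WT and Bap1KO libraries of media batches A, B and C, and at 0.38, 0.30 and 0.43 between the SMN groups in D, E and F; the labels give these batches, and a fit with the batch as a block (4 residual degrees of freedom) was run beside the main one. Other alternatives were other size factors, DESeq2 1.42.0, no filter, only the groups compared, a block on the replicate number, limma 3.58.1 (voom) with the batch as a random effect (correlation 0.45), and each library left out. The members, gene lists and marker lists were chosen with earlier results of these data known. Values in every library are given for the Timp genes, Mmp2, Mmp14, the 3 most abundant members of each family and called members that differed at least 2-fold, at most 8 per comparison by adjusted p; a few further members are given in the same way. Intervals of read ratios cover counting error only.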

Additional observations from a re-analysis of the deposited data

How the results depend on the processing

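The number of members called in Bap1KO against WT was 8 and depended most on the setting: 20 with the media batch as a replicate block, 5 with only those groups in the fit, and 1 to 6 when each library was left out in turn. It was 7 with other size factors, 10 with DESeq2 and 12 without the filter. In Smn1OE_K186R against Smn1OE it was 0, and 2 with the media batch as a replicate block. The other counts stayed within 1.5 times: leaving out each library gave 14 to 22 for Smn1OE against Bap1KO (18), 11 to 17 for Smn1OE_K186R against Bap1KO (15), 23 to 29 for Smn1OE against WT (26) and 22 to 25 for Smn1OE_K186R against WT (25). A block on the replicate number, which pairs no samples across these batches (correlations of -0.23 to 0.072), gave 19, 15, 26 and 27. Signs turned only for values that were not called. In Bap1KO against WT, Adamts2 was 0.01, -0.02 with the batch block and -0.21 to 0.27 without single libraries. There the ranges without single libraries were -0.36 to 0.15 for Adamtsl3, -0.32 to 0.92 for Mmp10, -0.13 to 0.08 for Mmp11, -0.48 to 0.13 for Mmp13, -0.03 to 0.32 for Mmp23, -0.37 to 0.23 for Mmp9 and -0.06 to 0.14 for Timp2. Adamtsl5 ran from -0.01 to 0.20 in Smn1OE and from -0.11 to 0.09 in Smn1OE_K186R against Bap1KO. In Smn1OE_K186R against WT, Adamts12 was 0.01, -0.01 with voom and -0.15 to 0.18 without single libraries. Between the SMN groups the ranges were -0.07 to 0.05 for Mmp14, -0.19 to 0.19 for Mmp2, -0.13 to 0.22 for Timp1 and -0.06 to 0.45 for Timp4. The cause of these shifts was not tested. Depth limits Timp4, Mmp12, Mmp24, Mmp25, Adamts3, Adamts8 and Adamts16 and the 9 members not tested, for which a few reads decide a value.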
